A study of Mus musculus with 8 samples.

Results

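The 10 genes described here, E2f6, Tfdp1, Mga, Max, L3mbtl2, Pcgf6, Rnf2, Ring1, Rybp and Cbx3, encode subunits of PRC1.6, a variant Polycomb repressive complex 1. They were measured with Affymetrix Mouse430 arrays, 1 array per heart, in 3 hearts of 2lox/2lox mouse embryos and 5 hearts of wild-type littermates, all at embryonic day E18.5. The 2lox/2lox embryos are homozygous for a floxed allele of Kdm1a (Aof2), the gene of the histone demethylase Lsd1. No Cre was used, the floxed exons are still present, and the allele makes a protein with a pair of amino acid changes in its tower domain, so it is a hypomorph even where the labels call it a knock-out. The labels give no sex, litter or strain, and both groups are intact hearts that hold all cardiac cell types. Members were every probe set whose platform annotation names 1 of the 10 genes and no other gene. This gave 20 of 45101 probe sets, for 9 of the 10 genes out of 18194 genes with a probe set of their own. Rybp had none, and 6 further probe sets are annotated to Rybp or Cbx3 together with a pseudogene copy.

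PRC1.6 silences germline genes in embryonic stem cells and somatic tissues. E2f6 with a DP partner such as Tfdp1, and Mga with Max, read short DNA elements at promoters. L3mbtl2 and Pcgf6 hold the complex together, Rnf2 or Ring1 with Rybp add ubiquitin to histone H2A, and Cbx3 (HP1 gamma) binds methylated histone H3. Lsd1, which removes methyl groups from histone H3, is not a subunit of PRC1.6, and the question here is whether transcripts of the complex, and of the germline genes it is known to silence, differ between 2lox/2lox and wild-type hearts.

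No member transcript passed the test at an adjusted p of 0.05, whereas 5 of 20 measured germline genes known as PRC1.6 targets did, and these 5 rose. The list of targets was drawn up knowing that the study lists these 5 as changed in these hearts, so their count is no independent evidence. With the RNA measure described below in the fit, only Mael of these 5 kept its call. Over the whole array the share that passed was 0.0798% of probe sets, or 0.148% of genes, and 0 of 20 member probe sets is near this share. The member probe sets with the largest differences measured 1.15-fold (Mga) and 0.80-fold (Rnf2) of the wild-type level, and 19 of the 20 member probe sets had 95% intervals that lay within 1.4-fold in either direction, the fold that the study's methods name. Of the 20, 3 had means below the lower quartile of all values and may read background.

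Promoters of the germline genes that passed are printed here with matches to short elements known for these factors. Binding in these hearts was not measured. The sequences are promoters of RefSeq transcripts in the mouse genome build GRCm38.p6, 300 bases each, 250 before and 50 after the start site, printed 5′ to 3′ on the strand of the gene. Capitals mark TCCCGC (the core of the E2F element), CACGTG (the E-box that Mga and Max bind) and AGGTGTGA (a T-box element, which the T-box domain of Mga binds), each searched on both strands, so that the reverse complement is in capitals too. No match of one element overlaps that of another in the sequences shown. The first 5 belong to the germline genes that passed the test, and the last, of Stag3, holds the E2F element and the E-box but its gene did not pass.
Slc25a31 promoter, chr3:40708621-40708920, plus strand: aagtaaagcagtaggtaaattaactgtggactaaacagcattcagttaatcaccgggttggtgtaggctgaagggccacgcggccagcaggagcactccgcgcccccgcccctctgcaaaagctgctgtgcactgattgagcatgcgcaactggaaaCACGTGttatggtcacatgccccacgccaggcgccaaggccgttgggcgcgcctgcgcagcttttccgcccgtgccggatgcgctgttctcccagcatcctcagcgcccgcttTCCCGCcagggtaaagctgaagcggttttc
Ddx4 promoter, chr13:112652261-112652560, minus strand: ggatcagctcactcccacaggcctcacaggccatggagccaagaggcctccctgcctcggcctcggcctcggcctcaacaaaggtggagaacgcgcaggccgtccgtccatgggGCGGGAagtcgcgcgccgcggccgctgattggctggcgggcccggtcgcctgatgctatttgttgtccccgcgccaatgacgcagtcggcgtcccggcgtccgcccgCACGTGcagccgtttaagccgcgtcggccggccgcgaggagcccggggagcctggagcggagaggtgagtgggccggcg
Mael promoter, chr1:166238695-166238994, minus strand: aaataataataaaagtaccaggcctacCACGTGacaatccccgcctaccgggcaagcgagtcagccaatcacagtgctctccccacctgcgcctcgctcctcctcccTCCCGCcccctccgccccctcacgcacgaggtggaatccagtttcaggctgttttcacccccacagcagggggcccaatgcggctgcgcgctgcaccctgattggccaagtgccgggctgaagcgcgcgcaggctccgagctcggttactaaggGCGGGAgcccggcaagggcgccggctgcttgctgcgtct
Sycp3 promoter, chr10:88459337-88459636, plus strand: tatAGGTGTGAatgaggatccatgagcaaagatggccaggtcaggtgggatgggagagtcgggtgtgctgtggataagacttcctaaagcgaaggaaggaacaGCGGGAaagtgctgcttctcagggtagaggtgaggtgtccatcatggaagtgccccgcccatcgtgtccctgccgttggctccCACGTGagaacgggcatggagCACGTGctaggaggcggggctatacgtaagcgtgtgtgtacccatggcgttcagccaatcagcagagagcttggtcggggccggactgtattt
Meioc promoter, chr11:102665335-102665634, plus strand: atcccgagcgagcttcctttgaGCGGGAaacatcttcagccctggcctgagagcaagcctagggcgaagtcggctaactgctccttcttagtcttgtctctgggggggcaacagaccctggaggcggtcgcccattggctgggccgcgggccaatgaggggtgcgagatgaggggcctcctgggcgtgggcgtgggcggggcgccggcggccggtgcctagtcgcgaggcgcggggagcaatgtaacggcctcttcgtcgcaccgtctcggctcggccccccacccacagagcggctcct
Stag3 promoter, chr5:138280259-138280558, plus strand: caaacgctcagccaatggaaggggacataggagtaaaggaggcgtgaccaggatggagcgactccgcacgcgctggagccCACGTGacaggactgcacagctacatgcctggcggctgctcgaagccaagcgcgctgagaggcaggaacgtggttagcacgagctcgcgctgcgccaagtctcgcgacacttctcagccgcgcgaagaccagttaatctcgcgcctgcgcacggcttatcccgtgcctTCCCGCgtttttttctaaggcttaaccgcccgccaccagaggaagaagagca

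All 5 of the promoters of genes that passed hold the E2F element, and 4 of them, of Slc25a31, Ddx4, Mael and Sycp3, hold the E-box as well. Sycp3 also has the T-box element. Of the 15 measured germline targets that did not pass, 13 had a promoter in the RefSeq table, of which 5 held the E2F element, 8 the E-box and 3 both. These 3 are Stag3, Hormad1 and Sycp1, with log2 differences of 0.30, 0.11 and -0.0005. Among all 32851 promoters of the table, 19.98% hold the E2F element, 7.15% the E-box and 1.275% the T-box element. Over the 25 promoters of the 20 listed targets that have one, the shares were 48%, 60% and 8% in the same order. The 9 members in the table have 11 promoters, of which 4 hold the E2F element (E2f6, Tfdp1 and Rnf2), 2 the E-box (Tfdp1 and Max) and none the T-box element. The targets were listed as genes that PRC1.6 is known to silence, and with the rise of the 5 known. Their shares of these elements are thus no independent evidence, either against all promoters or between targets that passed and did not. These matches describe the letters in these windows, and factor binding was not measured.

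The genotype of the hearts was checked first. Probe set 1426762_s_at of Kdm1a measured 9.44, 9.53 and 9.55 in 2lox/2lox hearts, against 10.26 to 10.36 in the 5 wild-type hearts (log2 expression here and below). The groups did not overlap, and Kdm1a fell by 0.81 on the log2 scale, to 0.57 of the wild-type level (adjusted p = 5.15e-04 by limma, with the Benjamini-Hochberg method applied over every probe set of the array). A second probe set, 1426761_at, gave -0.83 (adjusted p = 0.00176), and -0.81 (adjusted p = 0.0669) with the RNA measure described below in the fit. Fewer cells of a type and less RNA per cell cannot be told apart in such whole hearts. The mean level of 8 cardiomyocyte markers was 13.33 to 13.40 in 2lox/2lox hearts and 13.28 to 13.36 in wild-type hearts, and none passed the test. All 8 macrophage markers were higher on average in 2lox/2lox hearts (mean level 6.89 to 7.17, against 6.47 to 6.81 in wild-type hearts), and Cybb, a subunit of the phagocyte oxidase, passed the test (log2 difference 0.83, adjusted p = 0.0346). The Cybb call was lost with quantile normalization (adjusted p = 0.0561), median centring, the sex score, the replicate block or the 3′ minus 5′ value in the fit (0.467), and without 2lox/2lox heart 1 or 2 or wild-type heart 1, 2, 3 or 4 (0.075 to 0.187). The part of these cells in the results below was not tested. The difference between 3′ and 5′ probe sets of Actb and Gapdh, which reads RNA integrity and labelling, was 0.52, 0.50 and 0.33 in 2lox/2lox hearts 1, 2 and 3, against 0.32 to 0.38 in wild-type hearts, so that 2lox/2lox hearts 1 and 2 stood apart from the other 6. Xist, the transcript of the inactive X chromosome, measured 4.94, 4.82 and 10.88 in 2lox/2lox hearts 1, 2 and 3, against 4.61, 10.59, 4.92, 4.89 and 4.62 in wild-type hearts, so that 2lox/2lox heart 3 differed from hearts 1 and 2 in this as well.

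None of the 20 member probe sets passed an adjusted p of 0.05, for which the share over all probe sets was 0.0798% (36 of 45101). Their adjusted p ranged from 0.313 to 0.995. At an unadjusted p under 0.05 there was 1 higher probe set (Mga 1434746_at) and 1 lower (Rnf2 1451519_at), beside 5.97% higher and 4.94% lower over all probe sets. In 1 of 20, Mga 1434746_at, every 2lox/2lox heart lay above every wild-type heart, and in none below, while 3.41% of all probe sets lay above and 2.71% below. Each of these counts of 1 in 20 is close to the share over all probe sets. Of the 20 differences 7 were positive and 13 negative, with a median of -0.04, against 0.00 over all probe sets. The median size of a difference was 0.08 for the members and 0.07 for all probe sets, and the median SD between hearts was 0.10 in both 2lox/2lox and wild-type hearts. The interval of 1 probe set, Rnf2 1448042_s_at, reached beyond 1.4-fold.

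**Figure D1:**
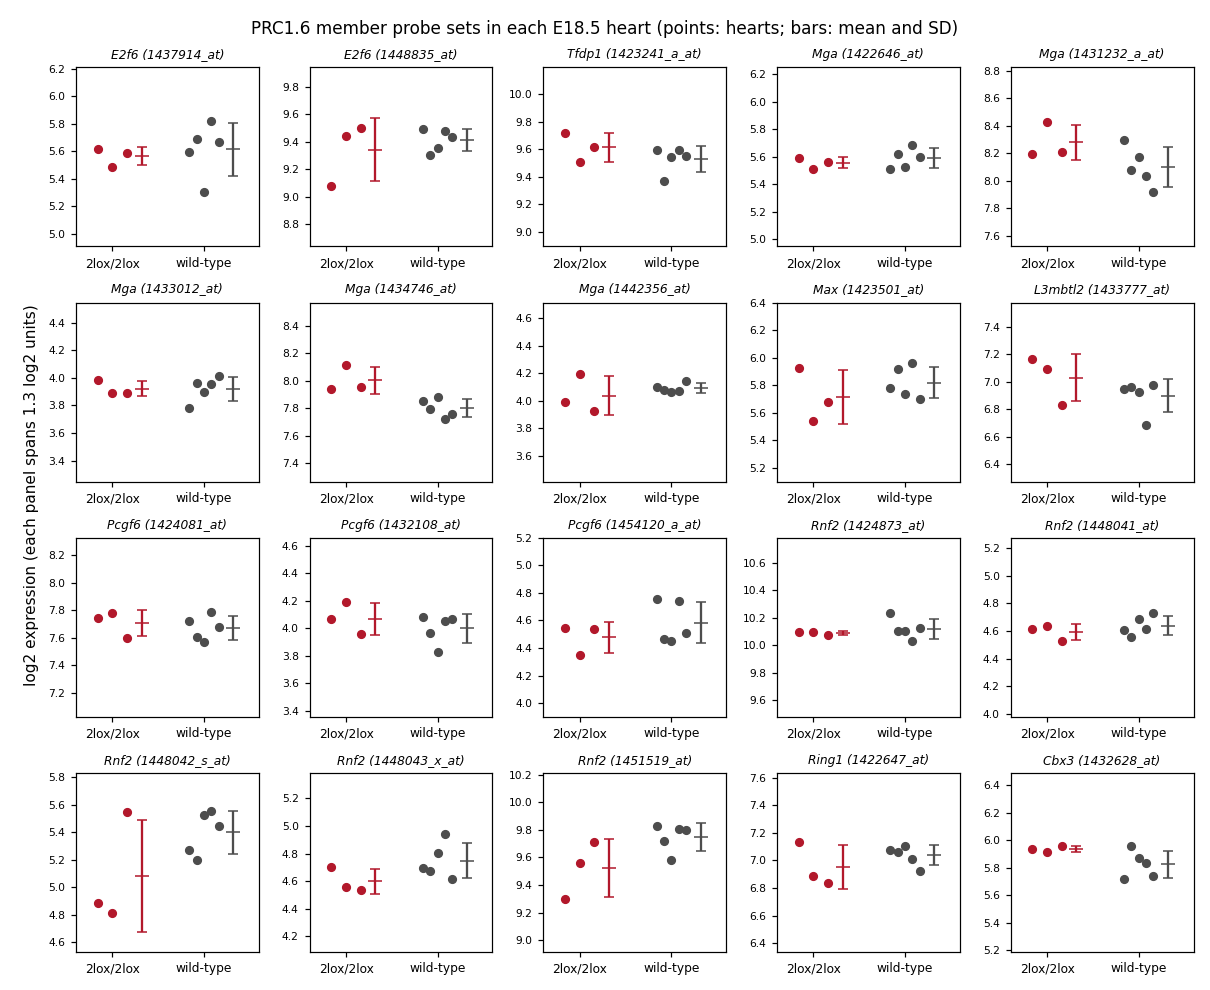
log2 expression of the 20 member probe sets, 1 panel each, with 1 point per heart (3 2lox/2lox hearts at left, 5 wild-type hearts at right) and bars for mean and SD. Each panel spans the same number of log2 units. The 2lox/2lox hearts lie above all wild-type hearts in 1 panel, Mga 1434746_at, and the groups overlap in the other 19.

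Of the members that bind DNA, E2f6 is a repressor of the E2F family that lacks the activation domain of its relatives. Its brighter probe set, 1448835_at, measured 9.08, 9.44 and 9.50 in 2lox/2lox hearts, against 9.49, 9.30, 9.35, 9.48 and 9.44 in wild-type hearts. Heart 1 of the 2lox/2lox group lay below all others, while its hearts 2 and 3 lay among or just above the wild-type hearts. The difference was -0.07 ± 0.10 (SE), with a 95% interval from -0.29 to 0.14 (adjusted p = 0.857, limma), and without 2lox/2lox heart 1 it was 0.06. The second E2f6 probe set, 1437914_at, measured 5.61, 5.49 and 5.59 in 2lox/2lox hearts and 5.30 to 5.82 in wild-type hearts, so that the 2lox/2lox hearts lay inside the wild-type range (difference -0.05, adjusted p = 0.917). Its sign also turned without wild-type heart 4, at 3.80e-04.

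Tfdp1 encodes DP1, the partner that E2F proteins need to bind DNA. It measured 9.72, 9.51 and 9.61 in 2lox/2lox hearts, against 9.60, 9.37, 9.54, 9.60 and 9.55 in wild-type hearts. The groups overlapped, with wild-type heart 2 the lowest of all 8. The difference was 0.08, with an interval from -0.08 to 0.24 (adjusted p = 0.764, limma).

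Mga is the large protein of the complex that carries both a T-box domain and a helix-loop-helix domain for pairing with Max. Its 5 probe sets did not move together. Probe set 1434746_at measured 7.94, 8.12 and 7.96 in 2lox/2lox hearts, against 7.85, 7.80, 7.88, 7.72 and 7.76 in wild-type hearts. All 3 2lox/2lox hearts were above the highest wild-type heart. The difference was 0.20 ± 0.07 (SE), or 1.15-fold with an interval from 1.04 to 1.27, and it did not pass the test (unadjusted p = 0.0109, adjusted p = 0.313, limma). The exact permutation test over the 8 hearts gave p = 0.0179, two-sided, which is the smallest that 56 arrangements allow. Leaving out single hearts gave differences between 0.15 and 0.23.

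Probe set 1431232_a_at of Mga measured 8.19, 8.43 and 8.21 in 2lox/2lox hearts, against 8.30, 8.08, 8.17, 8.03 and 7.92 in wild-type hearts. It overlapped through wild-type heart 1, with a difference of 0.18 (interval -0.03 to 0.38, adjusted p = 0.525, limma). Probe set 1422646_at measured 5.51 to 5.59 in 2lox/2lox hearts and 5.51 to 5.69 in wild-type hearts (difference -0.03, adjusted p = 0.902). The remaining Mga probe sets, 1433012_at and 1442356_at, had means below the lower quartile of all values, 4.21, and differences of -0.0020 and -0.05.

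Max, the shared partner of Mga and of the Myc and Mxd proteins, measured 5.92, 5.54 and 5.68 in 2lox/2lox hearts, against 5.78, 5.92, 5.74, 5.96 and 5.70 in wild-type hearts. Hearts 2 and 3 of the 2lox/2lox group were the lowest of the 8, and heart 1 lay inside the wild-type range. The difference was -0.10, with an interval from -0.31 to 0.11 (adjusted p = 0.766, limma).

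Among the scaffold subunits, L3mbtl2 is an MBT-domain protein needed for the assembly of the complex. It measured 7.16, 7.09 and 6.83 in 2lox/2lox hearts, against 6.95, 6.96, 6.92, 6.69 and 6.97 in wild-type hearts. Hearts 1 and 2 of the 2lox/2lox group were above all wild-type hearts and heart 3 was below 4 of the 5. Hearts 1 and 2 are also those with a high 3′ minus 5′ difference, and heart 3 is the one with high Xist. The difference between genotypes was 0.13 (interval -0.07 to 0.34, adjusted p = 0.677, limma) and turned to -0.052 when the 3′ minus 5′ value of each heart was a term of the fit.

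Pcgf6 is the Polycomb group ring finger protein that defines this variant of PRC1. Its brightest probe set, 1424081_at, measured 7.74, 7.78 and 7.60 in 2lox/2lox hearts, against 7.72, 7.60, 7.57, 7.78 and 7.68 in wild-type hearts. The 2 ranges were nearly the same, with a difference of 0.04 and an interval from -0.12 to 0.19 (adjusted p = 0.908, limma). Probe set 1454120_a_at differed by -0.11 (adjusted p = 0.751) and 1432108_at, with a mean below the lower quartile of all values, by 0.07 (adjusted p = 0.813).

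Rnf2 (Ring1b) is the main ubiquitin ligase of PRC1, and its 5 probe sets all had negative differences. Probe set 1424873_at measured 10.10, 10.10 and 10.07 in 2lox/2lox hearts, against 10.23, 10.10, 10.10, 10.03 and 10.13 in wild-type hearts. The 2lox/2lox hearts lay inside the wild-type range, and the difference was -0.03, with an interval from -0.16 to 0.10 (adjusted p = 0.909, limma). Probe set 1451519_at measured 9.30, 9.56 and 9.71 in 2lox/2lox hearts, against 9.83, 9.72, 9.58, 9.80 and 9.80 in wild-type hearts. Hearts 1 and 2 of the 2lox/2lox group lay below every wild-type heart and heart 3 lay above wild-type heart 3. The difference was -0.22 ± 0.10 (SE), with an interval from -0.43 to -0.01 (unadjusted p = 0.0433, adjusted p = 0.44, limma; exact permutation p = 0.0536). With the 3′ minus 5′ value of each heart in the fit it was -0.016.

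The third of these probe sets, Rnf2 1448042_s_at, had the widest spread of all members. It measured 4.89, 4.81 and 5.55 in 2lox/2lox hearts, against 5.27, 5.19, 5.52, 5.55 and 5.45 in wild-type hearts. Hearts 1 and 2 of the 2lox/2lox group were below every wild-type heart, and heart 3 was next to the highest. The difference was -0.32 ± 0.16 (SE), with an interval from -0.67 to 0.03 (adjusted p = 0.509, limma). Without 2lox/2lox heart 3 it was -0.55 (adjusted p = 0.0392), the only setting of those run in which a member passed the test. In that fit 797 of all probe sets passed. The 2lox/2lox hearts left in it were those with a high 3′ minus 5′ difference, so genotype and this measure cannot be told apart there. With the 3′ minus 5′ value of each heart in the fit of all hearts, the difference was 0.043. The last pair, 1448041_at and 1448043_x_at, differed by -0.04 (adjusted p = 0.86) and -0.15 (adjusted p = 0.558). Probe sets of 1 gene share its transcript, so that their shared sign does not count as 5 observations.

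Ring1, the paralog of Rnf2 in the same role, measured 7.13, 6.88 and 6.84 in 2lox/2lox hearts, against 7.08, 7.06, 7.11, 7.01 and 6.92 in wild-type hearts. Heart 1 of the 2lox/2lox group was the highest of the 8 and its hearts 2 and 3 the lowest. The difference was -0.08, with an interval from -0.26 to 0.09 (adjusted p = 0.771, limma).

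Rybp, which stimulates the ligase activity of Rnf2, could be read only through the 2 probe sets annotated to it and to its pseudogene Rybp-ps. Probe set 1421111_at measured 6.31, 6.36 and 6.48 in 2lox/2lox hearts, against 6.68, 6.54, 6.63, 6.67 and 6.61 in wild-type hearts. Every 2lox/2lox heart lay below every wild-type heart, by 0.24 ± 0.06 (SE) on average, or 0.85 of the wild-type level with an interval from 0.77 to 0.93. It did not pass the test (unadjusted p = 0.00264, adjusted p = 0.233, limma; exact permutation p = 0.0179). Of all probe sets, 2.71% lay lower without overlap. Probe set 1428219_at measured 10.23, 10.05 and 10.01 in 2lox/2lox hearts and 9.98 to 10.12 in wild-type hearts, with a difference of 0.06 (adjusted p = 0.809). The pair of probe sets thus differed in sign, and which of the gene and the pseudogene each one reads cannot be told apart.

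Cbx3 (HP1 gamma) has a chromodomain that binds trimethylated lysine 9 of histone H3. Its own probe set, 1432628_at, measured 5.94, 5.92 and 5.96 in 2lox/2lox hearts, against 5.72, 5.96, 5.87, 5.84 and 5.74 in wild-type hearts. The 2lox/2lox hearts lay within 0.04 of each other at the upper end of the wild-type range, with a difference of 0.11 and an interval from -0.04 to 0.26 (adjusted p = 0.606, limma). The 4 probe sets shared with the pseudogene Cbx3-ps5 differed by 0.01 to 0.16, with adjusted p between 0.494 and 0.976. The highest of these, 1439421_x_at, measured 10.91, 10.81 and 10.60 in 2lox/2lox hearts and 10.56 to 10.69 in wild-type hearts.

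**Figure D2:**
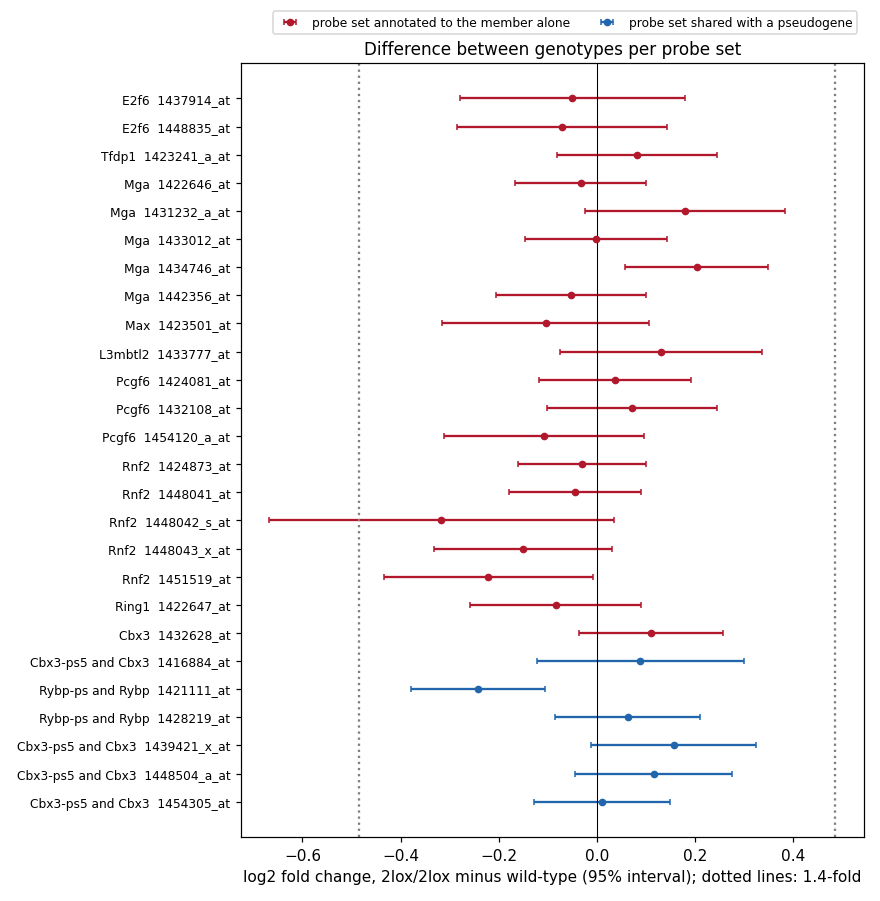
Log2 fold change of each probe set, 2lox/2lox minus wild-type, with 95% intervals (n = 3 and 5 hearts), for the 20 probe sets of members (red) and the 6 shared with a pseudogene (blue). Dotted lines mark 1.4-fold in either direction. The intervals that leave out 0 are those of Mga 1434746_at, Rnf2 1451519_at and the shared Rybp probe set 1421111_at, and that of Rnf2 1448042_s_at crosses the lower dotted line.

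The neighbours of these genes were read by the brightest probe set of each gene, for which the share past an adjusted p of 0.05 was 0.148% (27 of 18194 genes). On this measure the 9 members had a median difference of 0.04, against 0.00 over all genes, and none passed, adjusted or unadjusted. Of 7 other PRC1.6 subunits none passed the adjusted test and 2 were higher at an unadjusted p under 0.05, which 5.82% of all genes were, with 4.41% lower. These are the paired histone H3 lysine 9 methyltransferases Ehmt1 (log2 difference 0.17, adjusted p = 0.358) and Ehmt2 (0.21, adjusted p = 0.403). Ehmt1 measured 9.59, 9.49 and 9.44 in 2lox/2lox hearts, against 9.28 to 9.42 in wild-type hearts, without overlap. Of all genes, 3.16% lay higher in this way. The deacetylases Hdac2 and Hdac1, which are also partners of Lsd1, differed by 0.10 and -0.10.

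Of 17 measured subunits of other PRC1 complexes none passed, with a median of 0.03. An unadjusted p under 0.05 was found for 2 with higher and 1 with lower levels, beside 5.82% of all genes higher and 4.41% lower. Scmh1, a subunit of canonical PRC1, measured 8.21, 8.02 and 7.77 in 2lox/2lox hearts, against 7.56 to 7.74 in wild-type hearts. The groups did not overlap, as in 3.16% of all genes that lay higher in this way, and the difference was 0.37 (adjusted p = 0.228, limma). Without 2lox/2lox heart 3 it was 0.48 (adjusted p = 0.0248), in a fit in which 797 of all probe sets passed. The 2lox/2lox hearts left there were those with a high 3′ minus 5′ difference, which cannot be told apart from genotype. Cbx6, a chromodomain subunit, differed by 0.25 (adjusted p = 0.347), Pcgf5 by 0.26 (adjusted p = 0.473), and Kdm2b, the demethylase that brings variant PRC1 to CpG islands, by -0.21 (adjusted p = 0.422). None of 11 PRC2 subunits passed at either threshold, with a median of 0.00. Among them Suz12, which PRC2 needs for its activity, differed by 0.19 (adjusted p = 0.469).

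The relatives of the DNA-binding members were read in the same way. Of 10 other E2F and RB family genes none passed the adjusted test and 1 was higher at an unadjusted p under 0.05, with a median of 0.08. This was the activator E2f2, which measured 6.42, 6.45 and 6.64 in 2lox/2lox hearts, against 5.96 to 6.41 in wild-type hearts (difference 0.30, adjusted p = 0.327, limma). Of 11 Max partners and genes of the Mlx branch none passed, and an unadjusted p under 0.05 was found for 1 in each direction. Beside the counts of both lists, 5.82% of all genes were higher and 4.41% lower at that p. Mxi1, a Max-binding repressor, differed by 0.23 (adjusted p = 0.452). Mlx, a relative of Max, measured 6.36, 6.33 and 6.64 in 2lox/2lox hearts and 6.62 to 6.69 in wild-type hearts (difference -0.19, adjusted p = 0.394). Without 2lox/2lox heart 3 the difference was -0.29 (adjusted p = 0.0476), in the same fit with 797 calls and the same limit as for Scmh1. The other HP1 genes, Cbx5 and Cbx1, differed by 0.20 (unadjusted p = 0.0236, adjusted p = 0.372) and -0.10 and did not pass.

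**Figure D3:**
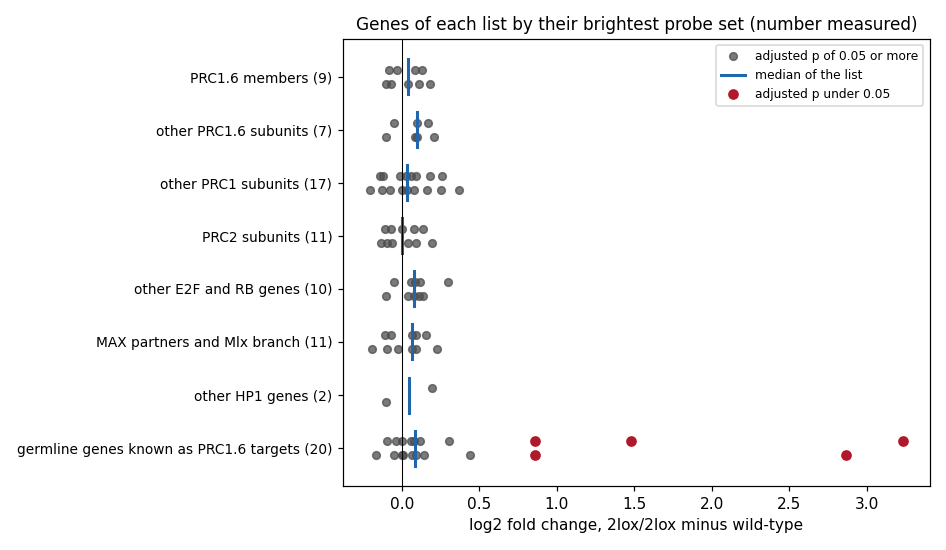
Log2 fold change, 2lox/2lox minus wild-type, of every measured gene of 8 lists by its brightest probe set, with 1 point per gene and the median of each list as a line. Red points passed an adjusted p of 0.05. These are 5 germline targets, between 0.86 and 3.23, while every gene of the other 7 lists lies between -0.21 and 0.37.

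The germline genes that PRC1.6 is known to silence, from work on embryonic stem cells and E2f6 mutant mice, were the list in which genes passed the test. Of 22 listed genes 20 were measured, 5 rose at an adjusted p of 0.05, none fell, and 15 did not pass. An unadjusted p under 0.05 was reached by 8, of which 7 lay higher and 1 lower, beside the 5.82% and 4.41% of all genes given above. The 5 are among the genes that the study itself lists as changed in these hearts, and the list was drawn up with that known, so its count is no independent evidence of a direction. The median of the 20 was 0.08, and 14 were positive and 6 negative. Averaged over the 20 genes as differences from the wild-type mean, the 2lox/2lox hearts stood at 0.52, 0.55 and 0.46, and the highest wild-type heart at 0.08. This average includes the 5 genes that passed, whose rise was known when the list was drawn up, so it is no independent evidence either.

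Slc25a31, the ADP/ATP carrier of the testis, measured 8.14, 8.78 and 7.58 in 2lox/2lox hearts, against 5.13, 4.10, 5.26, 6.04 and 4.13 in wild-type hearts. It rose by 3.23 ± 0.43 (SE) on the log2 scale, or 9.40-fold (adjusted p = 0.0280, limma), although the wild-type hearts spread widely. This call was lost on leaving out 2lox/2lox heart 1 or 2 or wild-type heart 1, 2 or 3, with differences from 2.93 to 3.32 and adjusted p from 0.065 to 0.148. Ddx4, the RNA helicase of germ granules known as Vasa, measured 6.70, 7.68 and 6.39 in 2lox/2lox hearts, against 4.34, 3.75, 3.88, 4.25 and 4.06 in wild-type hearts. It rose 7.29-fold (adjusted p = 0.00198), and the lowest 2lox/2lox heart lay well above the highest wild-type heart.

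Meioc, which keeps germ cells in meiotic prophase, measured 4.97, 5.48 and 4.97 in 2lox/2lox hearts, against 3.80, 3.58, 3.68, 3.44 and 3.80 in wild-type hearts. It rose 2.79-fold (adjusted p = 0.00196, limma). Mael, a piRNA pathway protein, measured 4.74, 4.53 and 4.91 in 2lox/2lox hearts, against 3.80 to 3.92 in wild-type hearts. It rose 1.82-fold (adjusted p = 0.00318). Sycp3, a component of the lateral elements of the synaptonemal complex, measured 5.16, 5.14 and 4.79 in 2lox/2lox hearts, against 4.11 to 4.26 in wild-type hearts. It rose 1.81-fold (adjusted p = 0.00562). With the 3′ minus 5′ value of each heart in the fit, Mael kept its call, while Meioc (adjusted p = 0.0764), Ddx4 (0.0764), Sycp3 (0.0953) and Slc25a31 (0.589) did not, with log2 differences of 1.36, 2.55, 0.67 and 2.86. The groups did not overlap in any of the 5 genes, and the wild-type means of Meioc, Mael, Sycp3 and Ddx4 lay below 4.21, the lower quartile of all values, so that their fold changes are measured against the dim end of the array.

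Among the targets that did not pass, Tex11, an X-linked meiosis gene, measured 4.19, 4.37 and 4.10 in 2lox/2lox hearts, against 3.68 to 3.94 in wild-type hearts, without overlap (difference 0.44, adjusted p = 0.133, limma). Stag3, the meiotic cohesin subunit whose promoter is shown above, measured 4.53, 4.46 and 4.40 in 2lox/2lox hearts, against 4.23, 3.95, 4.18, 4.37 and 4.06 in wild-type hearts. Its groups did not overlap either (difference 0.30, adjusted p = 0.283). Taf7l, a germ cell relative of the general transcription factor subunit Taf7, measured 3.72, 3.77 and 3.71 in 2lox/2lox hearts, against 3.82 to 4.01 in wild-type hearts (difference -0.17, adjusted p = 0.348). Hormad1, an axis protein of meiotic chromosomes, differed by 0.11 (adjusted p = 0.463). Over the 20 targets the groups did not overlap in 8 higher and 1 lower gene, beside 3.16% of all genes higher and 2.81% lower, and 8 of the 20 had a mean below the lower quartile of all values. The 8 higher genes include those that passed the test, whose rise was known when the list was drawn up. This count is thus no independent evidence of a direction.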

How the data were processed

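RNA of 8 E18.5 hearts was hybridized to Affymetrix Mouse430 arrays. The deposited log2 values of 45101 probe sets had been normalized between arrays by the authors, by a method not given in the sources used here, and array medians were 5.03 to 5.10. Their processing notes name limma without a version. Differences (2lox/2lox minus wild-type) were tested on both sides by limma 3.58.1 under R 4.3.3, using lmFit and eBayes with neither trend nor robust moderation. The p-values were adjusted by Benjamini-Hochberg across the whole array, and 0.05 was the threshold. The fit was tested on simulated data. Precision is limited by the number of arrays. Nothing says that hearts came from separate litters, so p-values measure only the spread between these hearts.

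The platform annotation gave 1 gene for 34958 probe sets (18194 genes, 99.4% of these probe sets matched in a RefSeq table of GRCm38.p6), several for 932 and none for 9211. The brightest probe set stood for a gene in lists. Lists are described by counts and medians, with no set test. Named were all member probe sets, Kdm1a, in each list up to 4 genes with the smallest p, and all targets that passed. Sycp1 was named for its promoter, after its values were seen. Members and lists were chosen with earlier results of these data known.

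Replicate numbers occur in both groups, but nothing says that they pair the hearts, and the main fit did not use them. Deviations of same-numbered hearts from their group means correlated by 0.010, -0.076 and -0.049. These values cover all probe sets, dim ones included, and cannot tell whether hearts shared a litter. Alternatives were other moderation, normalization, filters on dim probe sets, array weights, covariates, a replicate block, and each heart left out. The exact permutation test cannot go below p = 0.0179.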

Additional observations from a re-analysis of the deposited data

Results flagged for a closer look

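A sample far from the other 4 of its group was looked for in the wild-type hearts over 56 results, by the gap to the nearest heart as a share of the group's range, against a critical value of 0.71. Chance passes that value in about 1 in 20 groups, and 3 of the 56 passed. Tfdp1 was low in wild-type heart 2 at 9.37, with the others between 9.54 and 9.60. L3mbtl2 was low in wild-type heart 4 at 6.69, with the others between 6.92 and 6.97. Mlx was high in wild-type heart 3 at 6.69, with the others all at 6.62.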

How the results depend on the processing

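No member probe set passed an adjusted p of 0.05 under any alternative that kept all hearts, and over the hearts left out in turn the count was 0 to 1, with 1 (Rnf2 1448042_s_at) without 2lox/2lox heart 3. Over all probe sets the count of 36 became 0 with the replicate block and 9 with the 3′ minus 5′ covariate, and 17 to 797 over the hearts left out, with 797 without 2lox/2lox heart 3. The 2 member probe sets at an unadjusted p under 0.05 became 1 under either filter on dim probe sets, which removed 6 of the 20, 0 with the replicate block, 0 with the 3′ minus 5′ covariate, and 0 to 4 over the hearts left out. Groups that did not overlap, 1, became 2 with the 6 shared probe sets, an alternative chosen after seeing the data. Over the hearts left out this count was 1 to 4, with 4 without 2lox/2lox heart 1. With fewer hearts, groups lie apart more often by chance. The shares over all probe sets for both counts were not computed with a heart left out. These ranges are therefore no result about the members. The median of the members, -0.04, was 0.037 by the brightest probe set of each member and -2.03e-05 by the mean of all its probe sets.

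Signs that turned belong to differences that did not pass. With the 3′ minus 5′ covariate E2f6 1437914_at gave 0.035 and 1448835_at 0.097, L3mbtl2 -0.052, Pcgf6 1424081_at -0.018, Rnf2 1448042_s_at 0.043, E2f8 -0.12, Cbx3 shared 1448504_a_at -0.012 and Rybp shared 1428219_at -0.0056. With the replicate block E2f6 1437914_at gave 0.035, Mga 1422646_at 0.0038, Mga 1433012_at 0.039 and Cbx3 shared 1454305_at -0.038. Array weights gave 0.0066 for Mga 1433012_at, and the sex score as a covariate -0.0018 for Cbx3 shared 1454305_at. Over the hearts left out, E2f6 1437914_at ranged from -0.13 to 3.80e-04, E2f6 1448835_at from -0.15 to 0.059, E2f7 from -0.20 to 0.0093, Mga 1433012_at from -0.037 to 0.021, Mga 1442356_at from -0.13 to 0.0015, Pcgf6 1424081_at from -0.0008 to 0.091, Cbx3 shared 1454305_at from -0.018 to 0.039 and Rybp shared 1428219_at from -0.0031 to 0.10. The cause was not tested.

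Among the germline targets all 5 calls were lost with the replicate block (adjusted p 0.11 to 0.216), as were those of both Kdm1a probe sets (0.103 and 0.11, differences -0.82 and -0.85), 4 with the 3′ minus 5′ covariate (Meioc and Ddx4 0.0764, Sycp3 0.0953, Slc25a31 0.589), and Slc25a31 also with robust moderation (0.0953), with no change of direction. With 3 and 5 hearts, and an array whose dim probe sets may be background, small differences were not detectable here.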
